A study of Homo sapiens with 6 samples.

Results

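Krüppel-like factors are zinc finger transcription factors that bind GC-rich and CACCC sequences in promoters. Their DNA-binding ends are alike, while their other ends recruit different partners. KLF2, KLF4, KLF5, KLF6 and KLF7 mostly recruit coactivators, KLF3 recruits the CTBP corepressors, and KLF9, KLF10, KLF11 and KLF13 recruit SIN3 corepressors. In epithelia, the prostate among them, members of the family are known for opposing roles in proliferation and differentiation, and the transcripts of several rise quickly when cells meet serum, stress or hormones. The transcripts of 10 members, KLF2, KLF3, KLF4, KLF5, KLF6, KLF7, KLF9, KLF10, KLF11 and KLF13, were taken by gene symbol from a table of 19727 genes, and all 10 were found in it.

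The values come from RNA-seq of DU145, an established human prostate cancer cell line. In 3 libraries, called OE, the cells carried lentivirus-circCSPP1, which overexpresses the circular RNA circCSPP1, and in 3 others, called NC (genotype normal in the labels), they carried the control lentivirus-NC. Each group was a stable line made with its own vector and selected with puromycin, so the circular RNA, the vector and the history of each line cannot be told apart. No source used here says that the 3 libraries of a group came from separate cultures, and the p-values then measure only the spread between these libraries, which may be technical. Values are FPKM on polyadenylated RNA, that is fragments divided by transcript length and by the depth of the library. They are given per gene, so that circCSPP1 has no value of its own.

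Of the 10 factors, 3 rose with lentivirus-circCSPP1, 0 fell, and 7 did not pass the test. The 3 were KLF2, which rose 2.51-fold from a mean of 3.41 to 8.54 FPKM and is known in endothelium for its induction by blood flow, KLF9, which rose 1.62-fold and is known as a gene induced by glucocorticoid and thyroid hormones, and KLF4, which rose 1.52-fold and is known for restraining epithelial proliferation and for its use in reprogramming. KLF13 and KLF6, the most abundant of the 10 in both groups, did not pass the test. The test was limma on log2(FPKM + 1), with a threshold of 0.05 on the p adjusted by Benjamini and Hochberg's method over the 12322 genes that averaged 1 FPKM or more. By the same test 11.4% of all tested genes were called, 4.69% higher and 6.66% lower. The count of 3 called members was not kept when any library other than OE replicate 1 was left out. It was 1 without NC replicate 1, 0 without NC replicate 2, NC replicate 3 or OE replicate 3, and 2 without OE replicate 2. The share of all tested genes called fell in those fits too, to 2.43%, 2.57%, 3.3%, 3.65% and 9.41% in the same order. In bulk RNA, more transcript per cell and more cells with the transcript cannot be told apart.

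**Figure D1:**
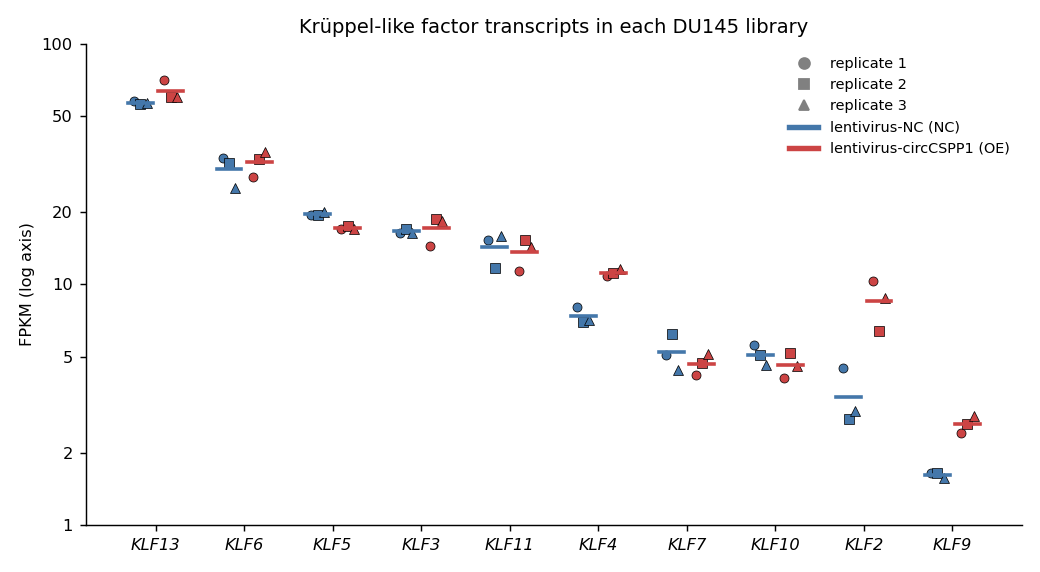
FPKM (log axis) of each of the 10 Krüppel-like factors in each of the 6 DU145 libraries, with NC in blue, OE in red, 1 symbol for each replicate number and a bar at each group mean, ordered by the NC mean. The OE points lie above the NC points for KLF2, KLF4, KLF9 and KLF13 and below them for KLF5, and the groups overlap for the other 5 factors.

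The identity of the cells and the state of the libraries bear on every value that follows. The epithelial markers KRT8, KRT18, KRT19, EPCAM and CDH1 were detected in all 6 libraries, KRT5 stayed at or under 0.85 FPKM, and of the androgen-dependent luminal markers KLK3 and KLK2 were at 0. The 5 tested epithelial markers were all lower in OE, and the 6 of the list summed to 2271 to 2361 FPKM in NC and 1047 to 1279 FPKM in OE. Of 11 markers of immune, endothelial and stromal cells, 8 were under the filter, CD3E and LUM were at 0 and PTPRC did not pass 0.08 FPKM, and the 11 summed to 49.3 to 55.9 FPKM in NC and 38.1 to 53.6 FPKM in OE, most of it CD68. The 3 tested markers of that list all had lower means in OE. COL1A1, a collagen gene, measured 2.6 to 4.06 FPKM in NC and 0.99 to 1.36 FPKM in OE (difference -0.97, adjusted p = 0.0101), with the call lost without NC replicate 1 (0.0505) and without moderation of the variance (0.0522). CD14 measured 2.34 to 2.42 and 0.8 to 2.13 FPKM (-0.51, adjusted p = 0.134), and CD68 had a difference of -0.22 (adjusted p = 0.357). The part of the lower epithelial and COL1A1 transcripts in the values of the 10 factors was not tested. Depth, read from the low values, was 28900000 to 36500000 fragments per library. Across tested genes the libraries correlated at 0.991 to 0.992 within NC and at 0.97 to 0.99 within OE, where replicate 1 stood apart.

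KLF2 (ENSG00000127528) is a gene on the plus strand of chromosome 19, bases 16324817 to 16327874 (GRCh38, GENCODE 29), with a coding transcript of 3 exons. It measured 4.49, 2.76 and 2.97 FPKM in NC replicates 1, 2 and 3, and 10.37, 6.43 and 8.81 FPKM in OE replicates 1, 2 and 3. The lowest OE library was above the highest NC library. The means were 3.41 ± 0.944 FPKM in NC and 8.54 ± 1.98 FPKM in OE (SD, n = 3 in each group). On the log2(FPKM + 1) scale, which understates the change of low genes, the difference was 1.11 (standard error 0.205, 95% interval 0.63 to 1.59, adjusted p = 0.0171), the largest among the 10. An exact two-sided permutation test of KLF2 alone gave p = 0.1, the smallest that 3 libraries against 3 allow. KLF2 was also the factor with the widest relative spread between libraries. Its coefficient of variation was 27.7% in NC and 23.2% in OE, against a counting error of at most 7.88% from its 161 to 676 fragments per library. The difference stayed positive under all 18 alternatives, from 0.97 to 1.33, and 13 of them called it. The call was lost without NC replicate 2 (adjusted p = 0.0838), NC replicate 3 (0.0747) or OE replicate 3 (0.0667), without a filter on low genes (0.0676) and without moderation of the variance (0.0849).

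KLF4 (ENSG00000136826) is on the minus strand of chromosome 9, bases 107484852 to 107490482. It measured 8.08, 6.96 and 7.11 FPKM in NC replicates 1, 2 and 3, and 10.81, 11.19 and 11.62 FPKM in OE replicates 1, 2 and 3. All OE libraries were above all NC libraries, and the spread within OE was narrow, with a coefficient of variation of 3.62%. The NC mean was 7.38 ± 0.608 FPKM (SD, n = 3) and the OE mean 11.2 ± 0.405 FPKM (SD, n = 3), and the difference on log2(FPKM + 1) was 0.54 (standard error 0.105, 95% interval 0.30 to 0.79, adjusted p = 0.0196). It was positive under all 18 alternatives, from 0.51 to 0.60, and 13 called it. Without NC replicates 1, 2 or 3 the adjusted p was 0.068, 0.103 and 0.0942, and without OE replicate 3 it was 0.0852.

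KLF9 (ENSG00000119138) is on the same strand and chromosome, bases 70384597 to 70414624. It was the least abundant of the 10, with 1.65, 1.64 and 1.57 FPKM in NC replicates 1, 2 and 3 and 2.41, 2.62 and 2.84 FPKM in OE replicates 1, 2 and 3. The groups did not overlap, and the NC libraries differed among themselves by less than the counting error of 6.39%, with a coefficient of variation of 2.69%. The NC mean was 1.62 ± 0.0436 FPKM (SD, n = 3) and the OE mean 2.62 ± 0.215 FPKM (SD, n = 3). The difference on log2(FPKM + 1) was 0.47 (standard error 0.103, 95% interval 0.23 to 0.71, adjusted p = 0.0296), and with a pseudocount of 0.01 it was 0.69, nearer to the ratio of the means. It was positive under all 17 alternatives that kept the gene, and 11 called it. Leaving out NC replicates 1, 2 or 3 gave adjusted p of 0.115, 0.117 and 0.116, and leaving out OE replicates 2 or 3 gave 0.0598 and 0.116.

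The promoters of the 3 factors that rose are shown because their base composition and their short motifs differ. The sequences are RefSeq entries on GRCh38.p14, the 250 bases before the RefSeq start, and capitals mark GC boxes (GGGCGG, or CCGCCC where the box is on the other strand) and a MEF2 site in KLF2, GC boxes in KLF4, and CCAAT boxes (read ATTGG, on the other strand) in KLF9.
KLF2, chr19:16324576-16324825, plus strand: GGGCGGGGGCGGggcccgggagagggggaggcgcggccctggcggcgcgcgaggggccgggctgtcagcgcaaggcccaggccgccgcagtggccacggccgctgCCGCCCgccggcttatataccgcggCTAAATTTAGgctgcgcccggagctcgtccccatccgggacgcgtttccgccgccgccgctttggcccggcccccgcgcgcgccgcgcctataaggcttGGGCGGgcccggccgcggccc
KLF4, chr9:107489770-107490019, minus strand: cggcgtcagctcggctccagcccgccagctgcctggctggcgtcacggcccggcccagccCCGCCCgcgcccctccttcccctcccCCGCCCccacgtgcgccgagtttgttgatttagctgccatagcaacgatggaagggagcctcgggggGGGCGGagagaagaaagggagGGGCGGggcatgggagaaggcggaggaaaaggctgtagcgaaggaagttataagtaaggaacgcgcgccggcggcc
KLF9, chr9:70414658-70414907, minus strand: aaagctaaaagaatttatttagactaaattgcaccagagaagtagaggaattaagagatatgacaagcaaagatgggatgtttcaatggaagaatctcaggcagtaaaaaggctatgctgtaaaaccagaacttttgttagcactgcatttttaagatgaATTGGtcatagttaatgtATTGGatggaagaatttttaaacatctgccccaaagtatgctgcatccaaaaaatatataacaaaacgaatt

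These starts differ from the outer ends of the genes in GENCODE 29, since a longer transcript there places the KLF4 sequence inside the gene and the KLF2 sequence runs just past the GENCODE start. The KLF2 sequence holds 4 GC boxes and 1 MEF2 site, which begins 120 bases before the start, and with the 50 bases after the start its GC content is 80.7%. MEF2 factors, activated by the kinase ERK5, are known to drive KLF2 in endothelium. The KLF4 sequence holds 4 GC boxes and 2 CRE half-sites (TGACG, on the other strand), which begin 247 and 210 bases before the start, with a GC content of 69.0%. The KLF9 sequence has a GC content of 32.7%, 0 GC boxes and 2 CCAAT boxes, which begin 90 and 72 bases before the start.

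The table of 35116 promoters of 300 bases has 13 entries for 8 of the 10 factors, and none was matched for KLF3 and KLF10. Each motif was searched on both strands, and a CRE (TGACGTCA) also counts as a half-site. A GC box is in 8 of the 13 entries and in 45.0% of all promoters, or 67.1% of those of tested genes. A CACCC box is in 7 of the 13 and in 59.9% of all, a CCAAT box in 6 and in 34.6%, and a CRE half-site in 4 and in 24.6%. Among promoters of tested genes these shares are 64.2%, 34.3% and 31.9%. The rarer motifs are in 1 of the 13 entries each. The MEF2 site is that of KLF2 and is found in 2.99% of all promoters, the whole CRE is in an entry of KLF11 176 bases before the start (1.85% of all), and the CArG box, the site of SRF, is in an entry of KLF7 62 bases before the start (1.29% of all). Among promoters of tested genes the MEF2 site is in 1.47%, the whole CRE in 2.78% and the CArG box in 1.07%. A match is a run of letters, and binding was not measured.

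**Figure D2:**
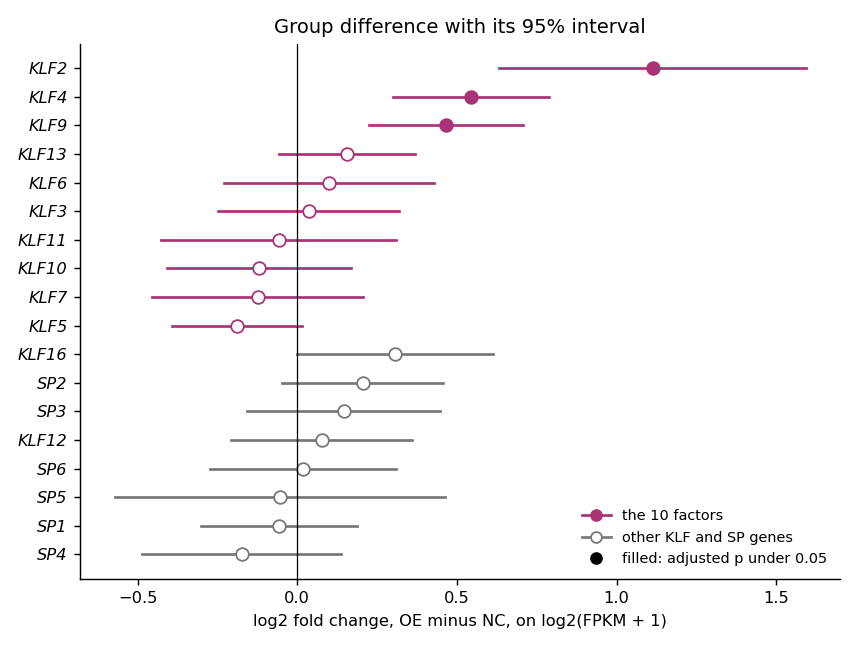
Difference between OE and NC on log2(FPKM + 1) with its 95% interval from limma for the 10 factors and the 8 tested genes of the rest of the family, with filled points for an adjusted p under 0.05. The intervals of KLF2, KLF4 and KLF9 lie above 0, and those of the other 15 genes include 0.

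KLF5 and KLF13 had groups that did not overlap and did not pass the test. Non-overlapping groups were found for 5 of the 10 factors, and for 36.4% of all tested genes. KLF5, which drives proliferation in basal epithelial cells and often opposes KLF4, measured 19.53, 19.45 and 20.06 FPKM in NC replicates 1, 2 and 3 and 17, 17.51 and 16.97 FPKM in OE replicates 1, 2 and 3. Every OE value was lower, by a small amount against a spread that was smaller still, with coefficients of variation of 1.68% and 1.77% that were under its counting error of 2.39%. The difference was -0.19 (standard error 0.087, 95% interval -0.39 to 0.016, adjusted p = 0.208). It was negative under all 18 alternatives, from -0.20 to -0.15, and was called lower under 2 of them, without moderation of the variance (adjusted p = 0.0253) and without a filter on low genes (0.0391).

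KLF13, known for its control of the chemokine CCL5 in lymphocytes, measured 57.79, 56.19 and 56.78 FPKM in NC replicates 1, 2 and 3 and 70.62, 60.45 and 60.04 FPKM in OE replicates 1, 2 and 3. All OE libraries were above all NC libraries, and OE replicate 1 was well above the other OE libraries, which lay closer to NC than to it. The difference was 0.16 (standard error 0.0915, 95% interval -0.058 to 0.37, adjusted p = 0.311), and it was 0.081 without OE replicate 1. A correction of each library for GC content and length of the transcripts gave 0.17 and called it (adjusted p = 0.049), the 1 alternative of 18 that did.

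The remaining 5 factors had overlapping groups. KLF6, which is known as a tumour suppressor candidate in the prostate, measured 25.07 to 33.46 FPKM in NC and 28.1 to 35.63 FPKM in OE, a difference of 0.10 with a 95% interval of -0.23 to 0.43 (adjusted p = 0.694). KLF3, a repressor that works through the CTBP proteins, measured 16.36 to 17.08 FPKM in NC and 14.44 to 18.64 FPKM in OE, a difference of 0.035 with an interval of -0.25 to 0.32 (adjusted p = 0.884). KLF7, best known in neurons, measured 4.39 to 6.23 and 4.2 to 5.14 FPKM, a difference of -0.12 with an interval of -0.45 to 0.21 (adjusted p = 0.617). The intervals of KLF6 and KLF7 reach 0.43 and -0.45, about the size of the difference measured for KLF9. The TGF-beta inducible factors had lower means in OE without passing the test. KLF10 measured 4.62 to 5.59 FPKM in NC and 4.07 to 5.17 FPKM in OE, a difference of -0.12 with an interval of -0.41 to 0.17 (adjusted p = 0.573), and KLF11 measured 11.74 to 15.85 and 11.32 to 15.36 FPKM, a difference of -0.058 with an interval of -0.43 to 0.31 (adjusted p = 0.85). The sign of the differences of KLF3, KLF6 and KLF11 turned when single libraries were left out. KLF3-AS1 and AC104794.4 overlap KLF3 and KLF11 on the other strand in GENCODE 29 and were not listed in the table, and without a statement on strand the values of KLF3 and KLF11 are uncertain to that extent.

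Of the 10 differences 6 were positive and 4 negative, with a median of 0.068, against a median of -0.0275 over all 12322 tested genes. Summed over the 10, the factors came to 155 to 167 FPKM in NC and to 173 to 178 FPKM in OE, most of it KLF13 and KLF6. Per length, the order of the levels in NC was KLF13, KLF6, KLF5, KLF3, KLF11, KLF4, KLF7, KLF10, KLF2 and KLF9. In that order the values of KLF7 (mean 5.23 FPKM) and KLF10 (5.09 FPKM) overlapped between libraries, and all other neighbours were apart. In OE, KLF2 stood above KLF7 and KLF10, without overlap, where it had stood below KLF10 in NC. KLF5, KLF3 and KLF11 each overlapped with the next in the OE order, which ran KLF5, KLF3, KLF11 and KLF4 with means of 17.2, 17.2, 13.7 and 11.2 FPKM.

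Ratios within a library do not depend on its scaling, and 2 of them, chosen after the values were seen, are given here. The ratio of KLF4 to KLF5, a pair known for opposite effects on epithelial growth, was 0.414, 0.358 and 0.354 in NC replicates 1, 2 and 3 and 0.636, 0.639 and 0.685 in OE replicates 1, 2 and 3. The groups did not overlap, and the log2 difference was 0.80. The ratio of KLF2 to KLF4 was 0.556, 0.397 and 0.418 in NC and 0.959, 0.575 and 0.758 in OE, a log2 difference of 0.73 that left the highest NC library just under the lowest OE library. For both ratios an exact two-sided permutation test gave p = 0.1, the smallest possible with 3 libraries against 3. For KLF4 to KLF5 that outcome was fixed, since every OE value was above NC for KLF4 and below NC for KLF5. The ratios of KLF2 and of KLF9 to KLF13 were also computed, and their groups did not overlap either.

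OE replicate 1 departed from OE replicates 2 and 3, and the departure of the 10 factors followed the GC content of their transcripts. On log2(FPKM + 1), KLF2, with 65.2% GC in its transcript, was 0.41 higher in OE replicate 1 than in the mean of the other two, and KLF13, with 57.6% GC, was 0.23 higher. KLF11 (46.8% GC) was 0.36 lower there (-0.36), and KLF3 (41.5% GC) had a departure of -0.34 and KLF6 (45.9% GC) of -0.28. KLF4, KLF5 and KLF9 departed by -0.071, -0.019 and -0.13. Spearman's correlation between departure and GC content was 0.733 over the 10 factors and 0.785 over 12305 tested genes, which share the same libraries. Over all tested genes the difference between the groups was less tied to GC content, with a correlation of 0.0544. Over the 10 factors it was 0.467, and KLF2 had both the highest GC content and the largest difference of the 10. Without OE replicate 1 the difference of KLF2 was 0.97 and that of KLF4 0.57, and KLF2, KLF4 and KLF9 were still called. With the correction for GC content and length they were called as well. Both fits called far more genes, 28.5% of all tested genes without OE replicate 1 and 27.6% with the correction, against 11.4% as reported.

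**Figure D3:**
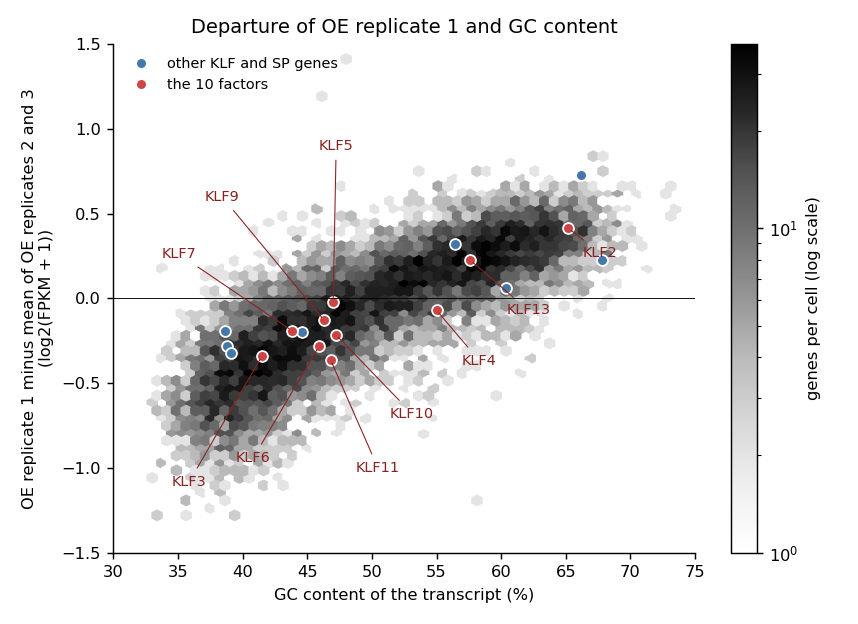
Departure of OE replicate 1 from the mean of OE replicates 2 and 3 on log2(FPKM + 1) against the GC content of the transcript in percent, with the 10 factors in red and named, the other tested KLF and SP genes in blue and the density of all tested genes in grey (log scale). KLF2 at 65.2% GC lies 0.41 above 0 and KLF3 at 41.5% GC lies at -0.34, along the slope of the other genes.

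The rest of the family gave 0 calls among 8 tested genes, too few to tell from the 11.4% called over all tested genes. Of 17 other KLF and SP genes 16 were listed, 8 averaged 1 FPKM or more, and these 8 had a median difference of 0.0472, with 5 positive and 3 negative values. KLF16, a repressor of the KLF9 kind, had the highest difference of the 8, with 30.69, 36.82 and 38.69 FPKM in NC replicates 1, 2 and 3 and 48.71, 37.8 and 45.56 FPKM in OE replicates 1, 2 and 3. Its groups overlapped (difference 0.31, standard error 0.131, adjusted p = 0.178). SP2 was the 1 gene of the 8 without overlap, with 49.33 to 51.5 FPKM in NC and 53.73 to 67.85 FPKM in OE (difference 0.21, adjusted p = 0.263). SP1 and SP3, general activators that bind the same GC boxes, had differences of -0.058 (adjusted p = 0.769) and 0.15 (adjusted p = 0.513). The differences of KLF12, SP4, SP5 and SP6 were 0.076, -0.17, -0.054 and 0.018, and the sign of SP5 turned with quantile normalization. KLF8 was just under the filter at 0.96 to 1.13 FPKM in NC and 0.62 to 0.94 FPKM in OE, while KLF15, a glucocorticoid-induced factor in other tissues, measured 0.04 to 0.23 and 0.4 to 0.61 FPKM. KLF1, KLF14, KLF17, SP8 and SP9 did not pass 0.45 FPKM in any library and KLF18 was at 0.

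The activators known to act on KLF2 and on its relatives were read from 2 lists. Of the 7 genes of the ERK5-MEF2 pathway 6 were tested, 1 was higher and 0 lower, with a median of 0.30. For all tested genes the shares called were 4.69% higher and 6.66% lower. MEF2D, a MEF2 factor, measured 47.06, 49.25 and 58.56 FPKM in NC and 97.94, 79.39 and 85.21 FPKM in OE (difference 0.75, standard error 0.118, adjusted p = 0.0106). The call was lost without NC replicate 1 or 2 and without moderation of the variance, with an adjusted p of at most 0.0616. MEF2A had a difference of 0.35 (adjusted p = 0.133), and MAPK7, which encodes ERK5, measured 16.99 to 17.97 FPKM in NC and 13.1 to 21.46 FPKM in OE, a difference of -0.012 (adjusted p = 0.974). Of the 6 genes for SRF and its partner factors 0 were called, with a median of 0.13, and SRF itself had a difference of 0.32 (adjusted p = 0.0999).

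**Figure D4:**
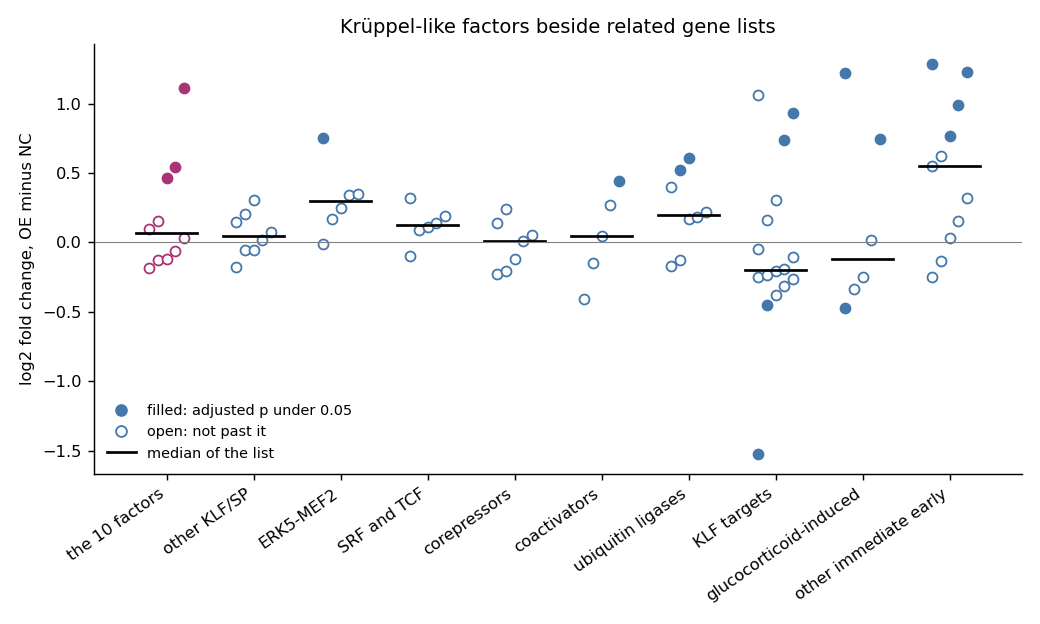
Difference between OE and NC on log2(FPKM + 1) for each tested gene of the 10 factors (purple) and of 9 related lists (blue), with filled points for an adjusted p under 0.05 and a bar at the median of each list. The immediate early factors outside the family have the highest median (0.55), and the median of the 10 factors, 0.068, lies near 0.

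Transcripts of the proteins that work with the factors were read as corepressors, coactivators and ubiquitin ligases. Over all tested genes 11.4% were called, 4.69% higher and 6.66% lower. Of the 7 corepressors 0 were called in either direction, with a median of 0.0125, among them SIN3A (0.0125) and CTBP1 (0.24, adjusted p = 0.199). Of the 5 coactivators 1 was higher, CREBBP, with 29.61 to 30.99 FPKM in NC and 38.8 to 45.25 FPKM in OE (difference 0.45, adjusted p = 0.0236), and its close relative EP300 had a difference of 0.048 (adjusted p = 0.771). Of 8 ubiquitin ligases known to act on KLF proteins 2 were higher and 0 lower. SMURF2 measured 18.35 to 18.99 FPKM in NC and 24.69 to 32.27 FPKM in OE (0.61, adjusted p = 0.0201), and SIAH1, which degrades KLF10, measured 13.67 to 15.45 and 20.61 to 21.66 FPKM (0.52, adjusted p = 0.017). WWP1, a ligase of KLF5 and KLF2, had a difference of -0.12 (adjusted p = 0.622). CREBBP, SMURF2 and SIAH1 were not called without any 1 of the NC libraries or without OE replicate 3, and SMURF2 was not called without moderation of the variance either (adjusted p = 0.0637).

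Genes that Krüppel-like factors are known to regulate went both ways. Of 22 such genes 16 were tested, 2 were higher, 2 were lower and 12 did not pass, with a median of -0.20. Among all tested genes 4.69% were called higher and 6.66% lower. CCND1, a G1 cyclin that KLF5 activates and KLF4 represses, measured 131.71 to 151.79 FPKM in NC and 226.92 to 255.38 FPKM in OE (difference 0.74, standard error 0.0863, adjusted p = 0.00449). SMAD7, the TGF-beta inhibitor that KLF10 represses, measured 4.43 to 5.57 and 9.42 to 11.26 FPKM (0.93, standard error 0.123, adjusted p = 0.00593). FGFBP1, a secreted carrier of fibroblast growth factors and a KLF5 target, fell from 6.33 to 8.18 FPKM in NC to 1.45 to 2.56 FPKM in OE (-1.53, standard error 0.167, adjusted p = 0.00365). FGFBP1 was called under all 17 alternatives that kept it, and CCND1 and SMAD7 under all 18. MAOA, a monoamine oxidase gene and a KLF11 target, was lower as well (-0.45, adjusted p = 0.0483), and 4 of 17 alternatives called it. CDKN1A, the cell cycle inhibitor that KLF4 and KLF6 activate, measured 37.34, 34.74 and 15.55 FPKM in NC and 41.01, 66 and 72.17 FPKM in OE. Its groups did not overlap, and its difference of 1.06 did not pass the test (standard error 0.346, adjusted p = 0.0923). CCL5, the target of KLF13, was lower in mean without a call (-0.31, adjusted p = 0.26).

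KLF9 is induced by glucocorticoids, and other genes of that kind did not move as 1 group. Of 8 listed genes 7 were in the table, 6 were tested, 2 were higher and 1 was lower, with a median of -0.12. The share of all tested genes that were called was 11.4%, with 4.69% higher and 6.66% lower. TSC22D3 measured 11.43 to 14.44 FPKM in NC and 29.2 to 33.21 FPKM in OE (1.22, adjusted p = 0.00234), and DUSP1 measured 32.69 to 34.41 and 48.25 to 64.99 FPKM (0.75, adjusted p = 0.0107). SGK1 measured 2.45 to 2.75 FPKM in NC and 1.43 to 1.74 FPKM in OE (-0.47, adjusted p = 0.0325), and FKBP5, a target often used to read the receptor's activity, had a difference of 0.02 (adjusted p = 0.973). The call of DUSP1 was lost under 4 of 18 alternatives, and that of SGK1 under 7 of 17.

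KLF2 and KLF4 are often counted among the immediate early genes, as are KLF6 and KLF10, and other transcription factors of that kind were set beside them. Of 14 such genes 11 were tested, 4 were higher and 0 lower, and 9 of the 11 differences were positive, with a median of 0.55. The shares called over all tested genes were 4.69% higher and 6.66% lower. IER2 and NR4A1 had negative differences without a call, of -0.25 (adjusted p = 0.833) and -0.14 (adjusted p = 0.602). FOSL1 measured 62 to 68.78 FPKM in NC and 145.51 to 180.45 FPKM in OE (1.29, adjusted p = 0.00129), EGR1 had a difference of 1.23 (adjusted p = 0.00588) and JUN of 0.99 (adjusted p = 0.00187). These 3 were called under all 18 alternatives. ATF3 had a difference of 0.77 (adjusted p = 0.0453) and was called under 9 of them. Within the family KLF6 and KLF10 had differences of 0.10 and -0.12, and KLF2 and KLF4 of 1.11 and 0.54. Neither the differences between these factors nor that between the lists was tested.

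By distance over the 6 libraries, after the mean of NC was taken off each gene on log2(FPKM + 1), the 3 tested genes nearest to KLF2 were CHAC1 (distance 0.375), MKNK2 (0.403) and CBS (0.446). CHAC1, a glutathione-degrading enzyme, measured 36.81, 35.95 and 33.08 FPKM in NC and 89.65, 62.1 and 78.38 FPKM in OE. MKNK2, a kinase of the translation factor eIF4E, measured 73.37, 69.5 and 68.73 FPKM in NC and 182.36, 124.57 and 140.37 FPKM in OE. CBS, an enzyme of cysteine synthesis, measured 82.14, 78.04 and 72.75 FPKM in NC and 197, 140.21 and 145.44 FPKM in OE. In all 3, as in KLF2, replicate 1 was the highest library of each group and replicate 2 the lowest of OE. The genes were picked by their distance over these same libraries, so a like order follows from the choice and is no separate result.

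The study links circCSPP1 to the microRNA miR-520h, and the 3′ UTRs of the 10 factors were searched for matches to its seed. The mature miRNA is shown with bases 2 to 8, the seed, in capitals (RefSeq, GRCh38.p14), and the longer matches in KLF4 and KLF11 are shown with the 7 matching bases in capitals (GENCODE 29).
miR-520h, chr19:53742566-53742587, plus strand: aCAAAGUGcuucccuuuagagu
KLF4, chr9:107485184-107485213, minus strand: aactgctgcatACTTTGAcaaggaaaatct
KLF11, chr2:10054682-10054711, plus strand: gatcttttgtgACTTTGAgccttttaagta
KLF11, chr2:10054751-10054780, plus strand: ttatgtaacagACTTTGAcattatttaaac

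A match of 6 bases (ACTTTG) was found in the longest 3′ UTR of 5 factors, 1 in KLF4, 1 in KLF7, 2 in KLF10, 3 in KLF11 and 2 in KLF13. Matches of 7 bases (CACTTTG or ACTTTGA) were found in 3 of them, 1 in KLF4, 1 in KLF10 and 2 in KLF11. Among 12257 tested genes with a 3′ UTR, 48.0% had a match of 6 bases and 32.7% a match of 7. KLF2 and KLF9 had 0 matches in 3′ UTRs of 843 and 3179 nt, and so had KLF3, KLF5 and KLF6. Of the 3 factors that rose KLF4 alone had a match, at position 549 of a 3′ UTR of 899 nt, while the differences of KLF10 and KLF11, with matches of 7 bases, were -0.12 and -0.058. A match does not show that the miRNA acts there, and its level was not measured in these libraries.

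**Figure D5:**
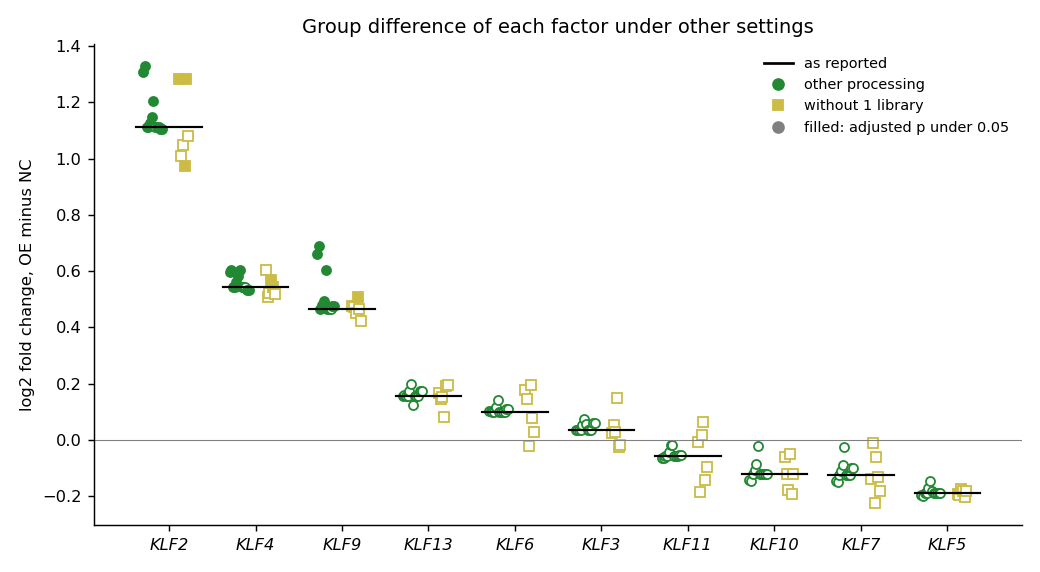
Difference between OE and NC on log2(FPKM + 1) for each factor as reported (black line), under other processing (green circles) and without 1 library (yellow squares), with filled symbols for an adjusted p under 0.05. KLF2, KLF4 and KLF9 stay above 0 throughout, with 0.97 to 1.33, 0.51 to 0.60 and 0.42 to 0.69, and most of their open symbols come from leaving out 1 library.

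For most of the 10 factors the spread between libraries was wider than the counting error. The lowest number of fragments in a library ran from 161 for KLF2 to 11083 for KLF13, which gives counting errors from 7.88% down to 0.95%. KLF6, KLF7 and KLF11 had coefficients of variation of 14.8%, 17.8% and 15.6% in NC against counting errors of 1.54%, 2.97% and 2.7%. The exceptions were KLF5 in both groups, KLF9 in NC and KLF4 in OE. Their coefficients of variation of 1.68%, 1.77%, 2.69% and 3.62% were under the largest counting errors of 2.39% for KLF5, 6.39% for KLF9 and 4.2% for KLF4.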

How the data were processed

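RNA-seq of 6 DU145 libraries, 3 NC and 3 OE, was analysed, grouped by their titles. The authors sequenced polyadenylated RNA in paired-end mode and deposited 1 table of FPKM values, rounded to 2 decimals, on build hg38 per the labels. The aligner, the FPKM program, the annotation and the strand setting are not given in the sources used here. A count model was not used, since FPKM values are not counts. A gene's FPKM depends on the share of the library that the other genes take. Summed FPKM was 589142 to 603390. 0 per-sample columns were left unused.

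Values were taken to log2(FPKM + 1), and 12322 of 19727 genes, those averaging 1 FPKM or more, were tested (7405 were not). The test was two-sided and without covariates, by lmFit and trended eBayes of limma 3.58.1 (R 4.3.3), with Benjamini-Hochberg adjustment over all of them. The fit was tested on simulated data. Single factors were also tested with the exact permutation test. Depth was read from low FPKM of single-transcript genes shorter than 800 nt, where 91.7% to 96.0% of 70 to 101 values per library fell within 0.15 of a step of a whole fragment number, and intervals on counting cover counting error only. Coordinates, GC content and 3′ UTRs are those of GENCODE 29, and promoters and the miRNA are RefSeq entries on GRCh38.p14.

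The 10 factors and all gene lists were chosen with earlier results of these data known. The text names all 10 factors, the tested genes of the rest of the family, list genes with an adjusted p under 0.05 and an absolute difference of at least 0.5, and the 3 genes nearest to KLF2. The marker lists are not among the lists of that rule. CREBBP, MAOA and SGK1, the markers and the list genes named without a call are outside that rule and were picked with their values known. Alternatives were 2 other pseudocounts (0.1, 0.01), a filter at 5 FPKM in place of 1 or none, TPM, median-ratio or quantile scaling, no moderation, robust eBayes, a block for the replicate number, loess correction for GC content and length, the latter with the block, and leaving out each library. 1 marker gene is not reported here.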

Additional observations from a re-analysis of the deposited data

How the results depend on the processing

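The median difference of the 10 factors moved by less than the spread between libraries under all 18 alternatives. The number of called factors was 3 under the other scalings, pseudocounts and filters except the mean of at least 5 FPKM, which tested 7 of the 10 and called 2. With no filter and without moderation the 3 were KLF4 and KLF9, higher, and KLF5, lower. It was 4 with the GC content and length correction, 1 with the replicate number as a block and 0 to 3 when a library was left out, which also leaves fewer samples. The number of all genes called, 1399, was 834 without moderation of the variance, 923 with the block, 3397 with the GC content and length correction, 2605 with both and 300 to 3512 without 1 library. The 15 calls in the other lists became 24 with the GC content and length correction and 7 to 22 without 1 library. The cause of these changes was not tested.

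The replicate numbers of NC and OE were taken as names, since same-numbered libraries deviated together with correlations of 0.0734, 0.00653 and 0.0572. With the replicate number as a block KLF2 was called and KLF4 (adjusted p = 0.0561) and KLF9 (0.0787) were not, and with the block and the GC content correction all 3 were called. The block alone also ended the calls of CREBBP (0.0573), ATF3 (0.0613), SGK1 (0.0699) and MAOA (0.0932), and of no other gene named as called. Every difference that changed sign was small and not called in either fit. Without 1 library, KLF11 ranged from -0.1842 to 0.0626 (0.0175 without NC replicate 3 and 0.0626 without OE replicate 1), KLF3 from -0.0256 to 0.148 (-0.0256 and -0.0167 without OE replicates 2 and 3), and KLF6 from -0.0229, without NC replicate 3, to 0.1943. SP1 ranged from -0.1402 to 0.0092, the latter without OE replicate 1, SP5 from -0.2967 to 0.128 (positive without NC replicate 1 and OE replicates 2 and 3) and SP6 from -0.0347 to 0.1092 (negative without NC replicates 2 and 3 and OE replicates 1 and 2). SP5 was 0.0982 with quantile normalization. The other scalings moved the share of higher genes among all calls from 41.3% to at most 49.2%, and under all 18 alternatives the median of all genes stayed between -0.0569 and 0.0112.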
